A study of Homo sapiens with 6 samples.

Results

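The genes described here are EGR1, EGR2, EGR3, IER2, IER3, IER5, KLF4, KLF6, KLF10 and ZFP36, 10 early-response genes chosen by name out of 20037 protein-coding genes. MYC ChIP-seq, in which DNA bound by a transcription factor is pulled down with an antibody and sequenced, was carried out in MIAPaCa2, an established human pancreatic ductal adenocarcinoma line. All cells had been without serum for 48 hours. For the last 3 hours the control cells had new DMEM, again without serum, and the treated cells had serum-free medium conditioned by primary cancer-associated fibroblasts (CM). Each condition had 2 immunoprecipitated libraries, each with its own peak list, and 1 input that was not analysed here. No label ties the paired libraries to different cultures, and their spread may be technical. A single cell line was used, and the labels do not give the number of fibroblast donors.

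Early-response genes are transcribed within minutes of a growth signal, before new protein is made. The signal usually runs through the RAS, RAF, MEK and ERK kinases to transcription factors already present, such as SRF with its ELK partners, which sit on CArG boxes near these genes. The products are often regulators themselves and many are short-lived. MYC, which binds DNA with its partner MAX at E-boxes such as CACGTG, is itself a gene of this early programme in many cells.

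A gene counted as bound in a library if any peak came within 1000 bp of one of its annotated ends. The 4 lists held 15304 and 12797 peaks in CM and 4657 and 7652 in DMEM. Read depth is unknown, so a missing peak is a missing call at the authors' threshold and not an absence of MYC. Each peak carries the authors' score, used here as its percentile within its own list, where the highest-scoring peak is near 100. Lists of different length make such percentiles a description of each library, not a measure of change. The peak lists do not show expression, so the cell type could not be checked by it. For orientation, 0 of 12 fibroblast markers and 5 of 10 ductal and epithelial markers were bound in both CM libraries, beside 39.1% of all protein-coding genes. In both DMEM libraries the counts were 0 and 1, beside 15.9%. CM library 2 had an end peak at 1 fibroblast marker. These counts do not identify the cell type. IER3, on chromosome 6 at 30743199 to 30744547, had no peak within 2359548 bp in any list used here. The lists as used here may be incomplete there, so IER3 was not analysed further, which left 9 genes. Over all 10, with IER3 counted as unbound, the numbers of bound genes given here are the same. IER3 was left out because it had no peak, so shares out of 9 are higher than shares out of 10. No such step was applied to the shares over all protein-coding genes.

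MYC was called at the ends of most of these genes in fibroblast medium and at fewer in DMEM. Of the 9 genes, or of 10 with IER3, 8 were bound in both CM libraries: EGR1, EGR3, IER2, IER5, KLF4, KLF6, KLF10 and ZFP36. EGR2 was the exception among the 9. Over all protein-coding genes, 39.1% were bound in both CM libraries. CM library 1 and CM library 2 each had 8 of the 9, beside 43.9% and 40.9% of all genes. DMEM library 2 had 5, namely EGR1, EGR3, IER2, IER5 and KLF4, beside 28.1% of all genes. DMEM library 1 had a peak at none of these ends, beside 16.8% of all genes. No member was therefore bound in both DMEM libraries or in all 4, beside 15.9% of all genes for either call. The means were 8 ± 0 genes in CM and 2.5 ± 3.54 in DMEM (SD, n = 2 each). The groups did not overlap, and the exact two-sided permutation p was 0.333, the smallest that 2 against 2 libraries allow.

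**Figure D1:**
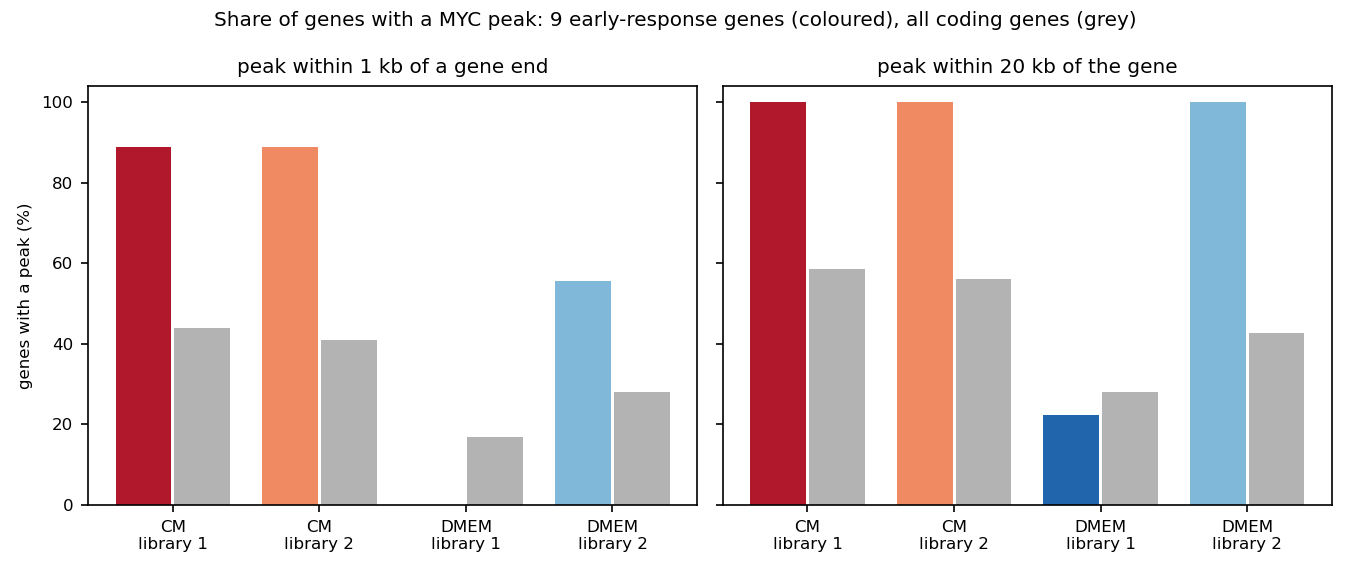
Share of genes with a MYC peak within 1 kb of a gene end (left) and within 20 kb of the gene (right), in percent, for the 9 early-response genes (coloured bars, by library) and all protein-coding genes (grey bars). At the gene ends both CM libraries stand at 8 of 9 genes, DMEM library 2 at 5 of 9 and DMEM library 1 at 0, while within 20 kb DMEM library 2 reaches 9 of 9. The coloured bars leave out IER3, which had no peak, while the grey bars leave out no gene. With IER3 these counts are 8, 5, 0 and 9 of 10.

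The genes thus fell into 3 patterns. KLF6, KLF10 and ZFP36 were bound in CM alone, with both CM libraries and no DMEM library, beside 11.0% of all genes. EGR1, EGR3, IER2, IER5 and KLF4 were bound in every library except DMEM library 1, beside 11.4% of all genes. EGR2 had a peak at an end in no library, as had 54.1% of all genes. The split between these 2 patterns of bound genes rests on DMEM library 2. Without that library all 8 bound genes were CM alone, beside 22.4% of all genes. Without DMEM library 1 the 5 genes of the second pattern were bound in DMEM and in every remaining library, beside 28.1% and 27.3% of all genes.

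RefSeq start windows on GRCh38.p14, each 250 bases before to 50 bases after a start, were matched for 7 of the 10 genes, 9 windows in all. EGR3, IER3 and KLF10 were not matched. CACGTG was searched on both strands, which read the same. It was found for KLF4, KLF6 and EGR2, in 1 window each, while 8.34% of 22199 windows of protein-coding genes hold it. That share was 11.1% in windows of genes bound in both CM libraries and 6.34% in windows of other genes. KLF4 and KLF6 are shown because their CACGTG, in capitals, lies before the annotated start of a gene bound in CM. The KLF4 stretch is chr9:107489770-107490019 on the minus strand and the KLF6 stretch chr10:3785210-3785459 on the minus strand, both written 5′ to 3′ and ending at the base before the start.
KLF4: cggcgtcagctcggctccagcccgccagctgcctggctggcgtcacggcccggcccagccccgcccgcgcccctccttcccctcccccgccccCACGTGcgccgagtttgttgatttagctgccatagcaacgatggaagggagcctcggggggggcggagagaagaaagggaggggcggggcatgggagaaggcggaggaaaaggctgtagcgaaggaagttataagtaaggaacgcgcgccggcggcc
KLF6: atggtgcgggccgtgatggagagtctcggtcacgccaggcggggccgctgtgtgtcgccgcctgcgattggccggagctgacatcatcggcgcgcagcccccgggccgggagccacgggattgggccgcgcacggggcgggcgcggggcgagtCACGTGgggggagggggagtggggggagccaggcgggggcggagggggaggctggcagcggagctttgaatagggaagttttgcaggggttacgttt

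The CACGTG of KLF4 begins 157 bases before the start and lay inside the peaks of CM library 1, CM library 2 and DMEM library 2. That of KLF6 begins 97 bases before the start and lay inside no peak, although the peak of CM library 1 covered 66 bases at the far end of the stretch. The third CACGTG belongs to an internal start of EGR2, where no library had a peak. It is shown with its flanks, from chr10:62818788-62818817 on the minus strand.
EGR2: tgccggtccgccCACGTGcgcagagaggag

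EGR1 is shown for its CArG boxes, the sites of SRF, marked in capitals in the 250 bases before its start at chr5:138465229-138465478 on the plus strand.
EGR1: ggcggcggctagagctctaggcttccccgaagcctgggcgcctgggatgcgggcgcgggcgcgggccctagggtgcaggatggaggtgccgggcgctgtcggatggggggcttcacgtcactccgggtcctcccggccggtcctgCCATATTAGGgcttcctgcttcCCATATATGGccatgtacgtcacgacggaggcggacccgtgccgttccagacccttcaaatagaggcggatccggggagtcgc

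The 2 CArG boxes of EGR1 begin 105 and 83 bases before the start, and both lay inside the peak of CM library 2 and inside no peak of the other libraries. A CArG box was found in 2 of the 9 windows of the 7 matched genes, 1 of EGR1 and 1 of EGR2, and in 1.25% of all windows. The CACGCG hexamer was in no window of these genes, and in 14.3% of all windows. By the ratio of observed to expected CpG, the windows of IER5, KLF6, KLF4 and EGR1 stood at 1.09, 0.989, 0.934 and 0.919, above the median of 0.737 over all windows. The 3 windows of EGR2 stood at 0.404, 0.920 and 0.991. IER2 and ZFP36, at 0.758 and 0.740, were near that median.

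**Figure D2:**
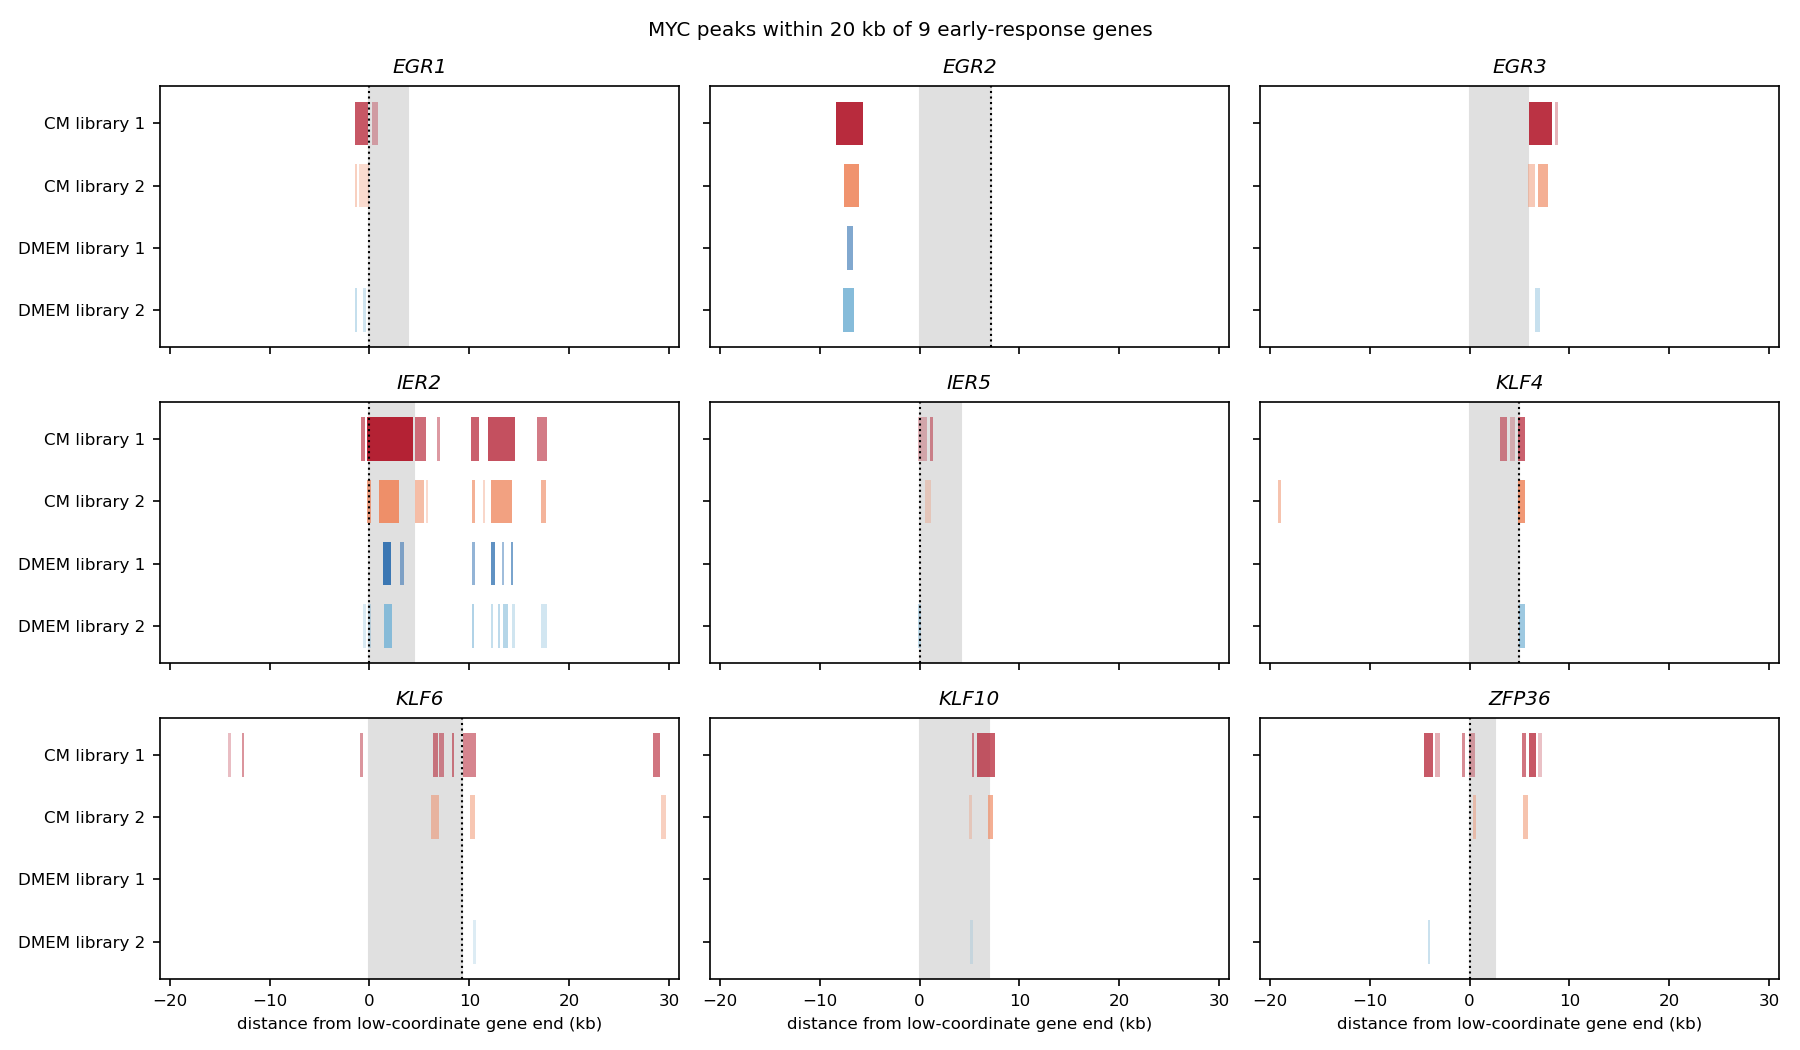
Position of every MYC peak within 20 kb of 9 early-response genes, in kb from the low-coordinate gene end, with 1 row per library, the gene as a grey band and the start, where known, as a dotted line (darker boxes have higher score percentiles). IER2 has 7, 8, 6 and 9 peaks in CM library 1, CM library 2, DMEM library 1 and DMEM library 2, while DMEM library 1 has no peak around 7 of the other 8 genes.

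In both CM libraries IER2 had the highest-scoring end peak of these genes, and in all 4 libraries the greatest length covered by peaks within 20000 bp. At gene ends in DMEM library 2 it ranked below KLF4, IER5 and EGR3. It encodes a nuclear protein induced early by growth factors, and lies on chromosome 19 at 13150411 to 13154911, read in the direction of increasing coordinates. Its highest-scoring end peak stood at percentile 93.6 in CM library 1 and 92.5 in CM library 2, a mean of 93.1 ± 0.806 (SD, n = 2). The value in DMEM library 2 was 21.4, but for a different peak, 307 bp wide and over the start. The 92.5 belongs to a peak inside the gene, counted because its edge lay 962 bp from the start. Over the start, CM library 2 had a peak at 68.3. The DMEM peaks inside the gene, at 81.5 and 88.2, began 1395 and 1467 bp from the start and were not counted. DMEM library 1 had no peak at an end.

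The missing call of IER2 in DMEM library 1 was set by distance. That library had a peak inside the gene from 13151806 to 13152597, at percentile 81.5 of its list, whose nearer edge lay 1395 bp from the start. A second peak inside the gene, at percentile 35.5, lay 1097 bp from the other end. DMEM library 2 had a peak at the same place, from 13151878 to 13152640, at percentile 88.2. In CM library 1 a single peak of 4692 bp, from 13150120 to 13154811, ran over nearly the whole gene and was wider than or equal to 99.9% of the peaks of that list. CM library 2 had 2 peaks over this stretch, 372 bp at the start and 1998 bp inside the gene, the latter from 13151373 to 13153370. The inner part of IER2 was thus covered in all 4 libraries, while peaks reached the start in every library but DMEM library 1. With the gene body counted, an alternative added after the data were seen, IER2 was bound in all 4 libraries, the sole member so bound in DMEM library 1. The peaks at the IER2 start also lay at the high-coordinate end of STX10, the neighbouring gene on the low-coordinate side. STX10 overlaps the start window of IER2, so these peaks cannot be assigned to IER2 alone.

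Beyond IER2, CM library 1 had a peak at the end of RPL12P42, and further peaks lay at no annotated gene end. Intervals from 13160601 to 13161417 and from 13162257 to 13164972 held peaks of all 4 libraries, and one from 13167133 to 13168192 held peaks of every library but DMEM library 1. The peaks of the second interval reached percentile 67.7 in CM library 1, 74.0 in CM library 2, 62.0 in DMEM library 1 and 43.2 in DMEM library 2. In all, peaks within 20000 bp of IER2 covered 11109 and 6707 bp in CM and 2170 and 3566 bp in DMEM. That length was at or above that of 99.8% and 99.7% of all protein-coding genes in CM and 97.7% and 99.7% in DMEM. IER2 alone made up 35.4% and 42.4% of the length covered around the members in CM, and 78.2% and 47.5% in DMEM.

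IER5, which encodes a regulator of the heat shock response, carried weak peaks. The gene spans 181088700 to 181092900 of chromosome 1. The end peak of highest score stood at percentile 5.69 in CM library 1 and 8.08 in CM library 2, a mean of 6.89 ± 1.69 (SD, n = 2), and at 28.5 in DMEM library 2. The DMEM peak, 328 bp wide, lay over the start and overlapped the peak of CM library 1 but not that of CM library 2. The nearest peak of DMEM library 1 was 585774 bp away. All of these end peaks also lay at the end of LOC124904465.

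The EGR genes encode zinc finger transcription factors that bind GC-rich sites, and the peaks at EGR1 and EGR3 ranked very differently between the CM libraries. EGR1, on chromosome 5 at 138465479 to 138469303, had its highest-scoring end peak at percentile 63.6 in CM library 1 and 7.35 in CM library 2, a mean of 35.5 ± 39.8 (SD, n = 2), and at 14.7 in DMEM library 2. These 3 peaks all lay before the start. The CM peaks were 1323 and 1027 bp wide and the DMEM peak, which ended 361 bp before the gene, 248 bp. CM library 1 had a further peak inside the gene, at percentile 12.1. A second, higher-scoring peak of CM library 2, at percentile 19.3, missed the window at 1233 bp from the gene. So did one of DMEM library 2, at percentile 26.2 and 1227 bp. Both overlapped the 1323 bp peak of CM library 1. DMEM library 1 had no peak within 72924 bp of EGR1.

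EGR3, on chromosome 8 at 22687659 to 22693480, had its end peaks beyond the high-coordinate end. They stood at percentile 84.1 in CM library 1, 27.4 in CM library 2 and 24.5 in DMEM library 2, and the CM mean was 55.7 ± 40.1 (SD, n = 2). A second peak of CM library 2, at percentile 57.5, missed the window at 1049 bp from the gene. The CM peak of library 1 spanned 2312 bp, against 745 bp for the end peak of CM library 2 and 505 bp in DMEM library 2. These peaks also lay at the end of LOC105379321. In DMEM library 1 the nearest peak was 87386 bp from EGR3.

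EGR2, on chromosome 10 at 62811996 to 62819167, had 1 peak within 20000 bp in each library and none at its ends. That peak stood at percentile 88.8 and 89.5 in CM and 42.3 and 92.8 in DMEM. It lay 5657 to 6655 bp from the gene, at the end of the neighbouring gene ADO. EGR2 and IER2 were the 2 members with a peak within 20000 bp in all 4 libraries, beside 27.2% of all genes.

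**Figure D3:**
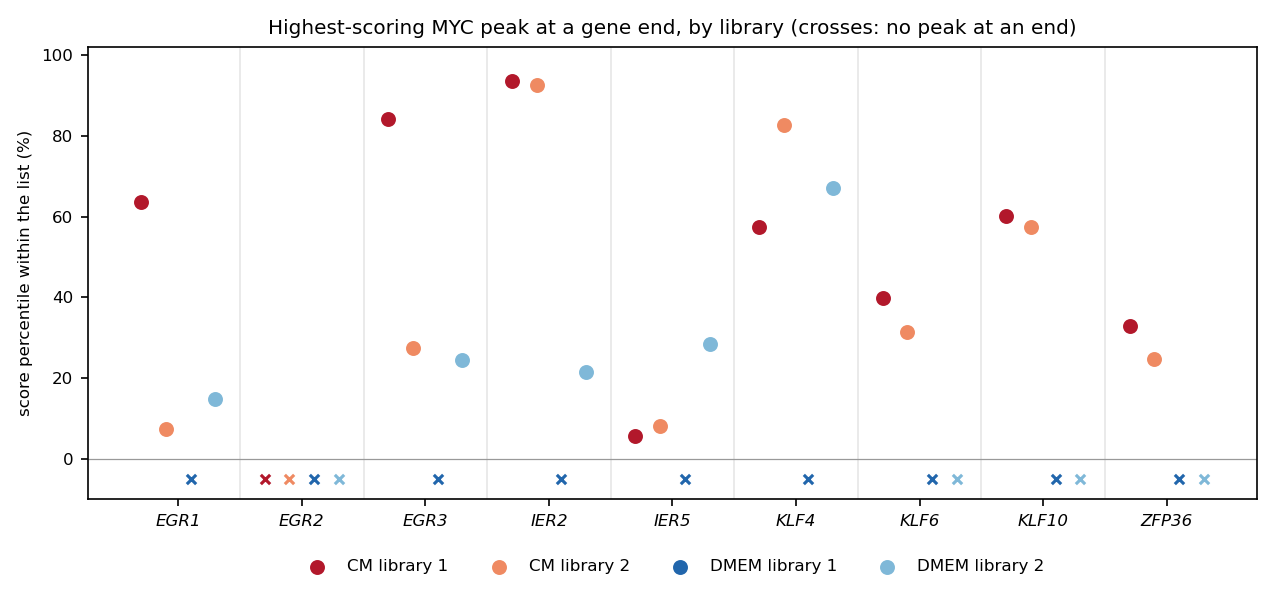
Score percentile, within each library's own list, of the highest-scoring MYC peak at an end of each of 9 genes, with circles for peaks and crosses for libraries without one. IER2 stands at 93.6 and 92.5 in CM, EGR1 and EGR3 differ widely between the CM libraries, and every DMEM library 1 value is a cross.

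The KLF genes encode zinc finger factors that bind GC-rich and CACCC sites. KLF4, known for its role in epithelial differentiation and in reprogramming, had the member peak most alike in place across libraries. It lies on chromosome 9 at 107484852 to 107489769 and is read in the direction of decreasing coordinates. Peaks over its start ran from 107489710 to 107490394 in CM library 1, from 107489711 to 107490420 in CM library 2 and from 107489763 to 107490449 in DMEM library 2. Their widths were 685, 710 and 687 bp and their percentiles 57.5, 82.6 and 67.0, so the DMEM value fell between those of CM. The CM mean was 70.0 ± 17.7 (SD, n = 2). The nearest peak of DMEM library 1 was 200434 bp away.

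KLF6, a broadly expressed factor often described as a growth suppressor, lies on chromosome 10 at 3775996 to 3785209. CM library 1 had 8 peaks within 20000 bp and CM library 2 had 3. Their highest-scoring end peaks stood at percentile 39.8 and 31.4, a mean of 35.6 ± 5.95 (SD, n = 2). Those 2 peaks did not overlap: the one of CM library 1 lay inside the gene, and the one of CM library 2 lay before the start and overlapped another end peak of CM library 1, at percentile 36.8. DMEM library 2 had a peak of 342 bp there, at percentile 1.19, which missed the window at 1115 bp from the gene. KLF6 was thus CM alone by a narrow margin. In DMEM library 1 the nearest peak was 40444 bp away.

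KLF10, first described as a gene induced early by TGF-beta, lies on chromosome 8 at 102648784 to 102655725. Its end peaks lay at the high-coordinate end at percentile 60.1 in CM library 1 and 57.5 in CM library 2, a mean of 58.8 ± 1.84 (SD, n = 2). They were 1793 and 476 bp wide and also lay at the end of LOC101927245. DMEM library 2 had a peak of 326 bp at percentile 1.97, inside the gene and 1600 bp from the end, which overlapped a second CM peak of either library. DMEM library 1 had none within 151498 bp.

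ZFP36 encodes tristetraprolin, which binds AU-rich elements in messenger RNAs and promotes their decay. The gene spans 39406847 to 39409407 of chromosome 19. The end peaks of highest score stood at percentile 32.9 in CM library 1 and 24.8 in CM library 2, a mean of 28.9 ± 5.71 (SD, n = 2). They did not overlap each other, since the first lay before the start and the second inside the gene, where CM library 1 had another peak at percentile 15.9. DMEM library 2 had a single peak, at percentile 21.4 and 3948 bp from the gene, which overlapped a peak of CM library 1. In DMEM library 1 the nearest peak was 21337 bp away. Of the genes bound in CM alone, ZFP36 was the one where no DMEM peak lay within 2500 bp of an end.

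Most of these end peaks ranked below those of other bound genes. The median percentile over the 8 bound members was 58.8 in CM library 1 and 29.4 in CM library 2, beside 69.3 and 65.7 over all bound protein-coding genes. In DMEM library 2 it was 24.5 over the 5 bound members, beside 60.4. With every list shortened to its top 4657 peaks, the length of the shortest list, few members kept a call. These were EGR3 and IER2 in CM library 1, IER2 and KLF4 in CM library 2, none in DMEM library 1 and KLF4 in DMEM library 2. Over all genes the shares in such lists were 21.9%, 21.6%, 16.8% and 19.8%. IER2 alone was then bound in both CM libraries, beside 18.0% of all genes.

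Within 20000 bp of the genes, DMEM library 1 stood apart and the other libraries were alike in how many genes had a peak. All 9 genes, or 9 of 10 with IER3, had a peak in CM library 1, in CM library 2 and in DMEM library 2. The shares of all genes were 58.6%, 56.2% and 42.7%. DMEM library 1 had a peak near 2 genes, EGR2 and IER2, beside 28.1%. The counts of genes overlapped between the conditions, with an exact permutation p of 1. The counts of peaks were 34 and 23 in CM and 7 and 18 in DMEM. Their means were 28.5 ± 7.78 and 12.5 ± 7.78 (SD, n = 2 each), with an exact permutation p of 0.333. The whole lists were also longer in CM, with 15304 and 12797 peaks against 4657 and 7652 in DMEM. The difference in counts is thus not particular to these genes. All 7 peaks of DMEM library 1 and all 18 of DMEM library 2 overlapped a CM peak by at least 1 bp, and over the whole lists 98.3% of the peaks of either library did. In the other direction 13 of 34 and 13 of 23 CM peaks overlapped a DMEM peak, 38.2% and 56.5%, against 44.0% and 53.0% over the whole lists.

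Merging the peaks of the 4 libraries gave 36 intervals around the members. Peaks of all 4 libraries met in 4 intervals, 3 of them at IER2 and the other at ADO beside EGR2, or 11.1% against 20.6% of 16235 intervals over the whole lists. Another 7 held both CM libraries and 1 DMEM library (19.4% against 18.4%), and 5 held both CM libraries alone (13.9% against 21.8%). A further 2 held 1 CM library with DMEM (5.56% against 1.94%). The remaining 18 held 1 CM library alone (50% against 36.0%), 15 of them CM library 1. They were at EGR1, EGR3, IER2, KLF4, KLF6 and ZFP36.

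The length covered by peaks around the members was 31365 and 15829 bp in CM and 2775 and 7502 bp in DMEM. The means were 23597 ± 10986 bp and 5139 ± 3342 bp (SD, n = 2 each). CM was thus 4.59-fold higher by the ratio of means, a log2 ratio of 2.20, and the groups did not overlap (exact two-sided permutation p = 0.333, the smallest possible). Over the whole lists the ratio was 3.45-fold, from 14.6 and 9.90 Mb in CM and 2.85 and 4.24 Mb in DMEM. The members therefore took 0.216% and 0.160% of the covered length of the CM lists and 0.0975% and 0.177% of the DMEM lists, and these shares overlapped between the conditions. The log2 ratio was 3.09 without DMEM library 2, 1.65 without DMEM library 1, 2.61 without CM library 2 and 1.62 without CM library 1. The mean score of the peaks around the members was 85.1 and 93.1 in CM and 61.1 and 67.6 in DMEM. Their median scores were 64 and 62 in CM and 54 and 47.5 in DMEM. Each was below the median of its whole list, 83 and 83 in CM and 59 and 74 in DMEM. The whole lists thus also scored higher in CM.

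**Figure D4:**
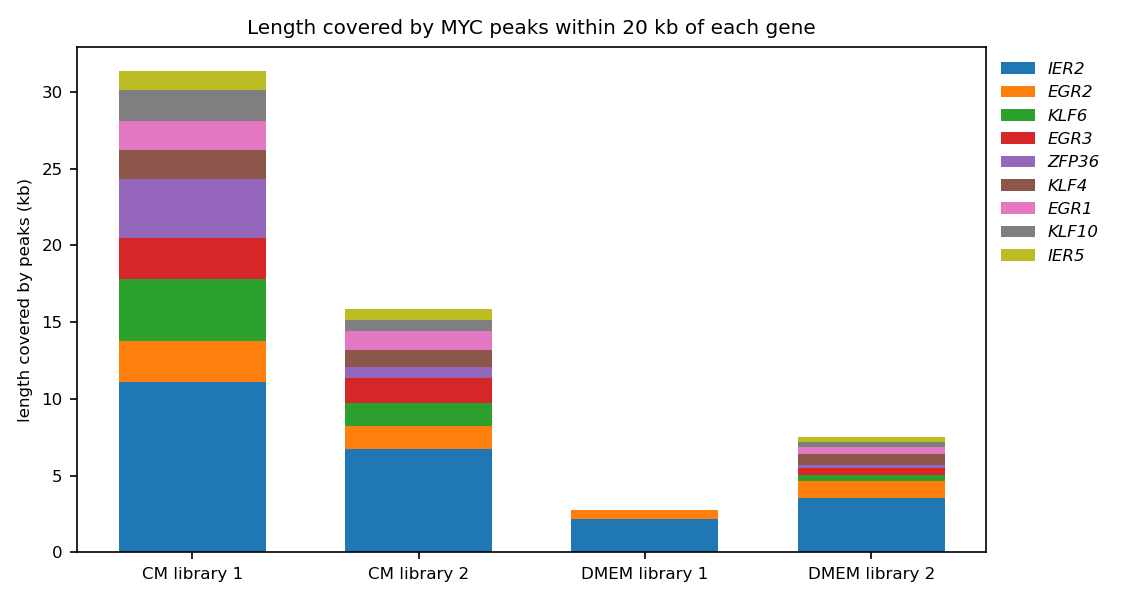
Length covered by MYC peaks within 20 kb of each of 9 genes, in kb, stacked by gene for each library. IER2 is the lowest segment in every bar, 11109 bp of 31365 bp in CM library 1 and 2170 bp of 2775 bp in DMEM library 1.

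Genes related to the members were taken from lists chosen with earlier results of these data known. Their counts stand beside the shares over all genes given above, 39.1% bound in both CM libraries, 11.0% in CM alone and 15.9% in both DMEM libraries. Of 14 paralogues and EGR co-repressors, 9 were bound in both CM libraries, 2 of them in CM alone, and 1 was bound in both DMEM libraries. That one was ZFP36L2, a relative of ZFP36, at percentiles 99.5 and 99.5 in CM and 97.7 and 96.9 in DMEM. ZFP36L1, of the same family, stood at 93.0 and 89.9 in CM and at 0.470 in DMEM library 2. NAB1 and NAB2, which bind EGR proteins and repress them, were both bound in CM, at 67.7 and 77.5 and at 82.9 and 61.4. NAB1 also had a peak in DMEM library 2, at 18.2, and NAB2 in neither DMEM library.

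Of 20 other immediate-early genes, 12 were bound in both CM libraries, 6 of them in CM alone, and 3 in both DMEM libraries. The highest percentiles in CM belonged to FOSL1 and JUNB, subunits of AP-1, at 91.2 and 92.8 and at 88.8 and 87.7. In DMEM, FOSL1 stood at 73.7 and 88.8, and JUNB at 89.4 in DMEM library 2 alone. GADD45B stood at 83.8 and 74.4 in CM and JUN at 71.0 and 74.8. Of 16 upstream kinases and factors, 9 were bound in both CM libraries, 2 of them in CM alone, and 4 in both DMEM libraries. ELK4, SRF and ELK1, the factors that meet at CArG boxes, were bound in all 4 libraries. Their CM percentiles were 98.0 and 95.8, 77.9 and 80.6, and 75.1 and 71.9. Their DMEM percentiles were 92.9 and 92.5, 40.9 and 86.0, and 62.0 and 67.0. MAP2K2, a MEK kinase, stood at 75.5 and 66.7 in CM and 53.1 in DMEM library 2. The median percentile of bound genes was 71.0 and 68.3 for the paralogues, 71.0 and 61.4 for the immediate-early genes and 56.1 and 66.7 for the upstream genes in CM library 1 and CM library 2.

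By percentiles at the gene ends over the 4 libraries, with a missing peak set to 0, the protein-coding genes most like IER2 were NUS1, IPO13 and PRICKLE4. Their mean absolute differences from IER2 were 2.55, 2.78 and 2.82 percentile points. All had percentiles of 88.1 to 91.7 in the CM libraries and no end peak in DMEM library 1. In DMEM library 2 all 3 stood above IER2. The IER2 values matched here depend on the window at the gene ends. In DMEM library 1 and DMEM library 2 the highest-scoring peaks inside IER2 stood at percentile 81.5 and 88.2. They began 1395 and 1467 bp from the start, so they were not counted. The CM library 2 peak over the same stretch, at 92.5, was counted with its edge at 962 bp. The likeness thus holds for this window, and it was not tested with another.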

How the data were processed

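MYC ChIP-seq peak lists of 4 immunoprecipitated libraries were analysed. Peaks were called per library. The tools named are Trim Galore 0.4.3, Bowtie2 2.3.4, SAMtools 1.3.1, MACS2 2.1.1.20160309 and Picard 2.9.0, with the build GRCh38, per the submitters' processing notes. Their settings were not given in the sources used here. Deposited scores are whole numbers, 1 per peak, and the common lists deposited by the authors carry the mean score of both libraries. Depth is unknown.

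Genes came from a RefSeq table of GRCh38.p14 (protein-coding, chromosomes 1 to 22, X and Y). Starts came from its promoter table. Peaks were placed within 1000 bp of either gene end and within 20000 bp of the gene, and scores were ranked within each list (Python 3.11.15, pandas 2.3.3). Intervals and covered lengths were tested on simulated data with 200 planted genes. Conditions were compared by exact permutation over all 6 relabellings. All members are named, with up to 4 genes bound in both CM libraries per further list by mean CM percentile and the 3 genes most like the leading member. Members and lists were chosen with earlier results of these data known.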

Additional observations from a re-analysis of the deposited data

How the results depend on the processing

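The peak lists hold no read counts, so depth limits every missing call. Of the 8 members bound in both CM libraries, 6 to 8 were called under the alternatives other than lists of equal length. The shares over all genes under those alternatives were 33.8% to 43.9%. Lists of equal length left 1 (18.0% of all genes), and leaving out a library gave 8 each time. The count bound in both DMEM libraries, 0, became 1 with a window of 2500 bp (17.4% of all genes) or with the gene body included (18.1%). It was 0 to 5 when a library was left out (15.9% to 28.1%). The count bound in all 4 libraries, 0, likewise became 1 (17.4%), 1 (18.0%) and 0 to 5 (15.9% to 27.3%). With the authors' common list of all libraries it was 1 (IER2, 15.8%). The number of members bound in CM alone, 3 (11.0% of all genes), was 1 with 2500 bp (ZFP36, 11.1%). It was 5 with a minimum score of 50 (EGR3 and IER2 added, 11.5%). In lists of equal length it was 1 (IER2, none of the 3, 1.93%). It was 8 with the authors' common lists (23.7%) and 3 to 8 when a library was left out (11.8% to 22.4%). With the common lists the call is looser, since genes with an end peak in DMEM library 2 still counted as CM alone. These were EGR1, EGR3, IER2, IER5 and KLF4, and IER2 was also in the common list of all libraries. With 500 bp it was again 3 (11.0%), with EGR3 in place of KLF6. The start end alone gave 6 of 7 matched members bound in CM, beside 40.4% of all matched genes. The log2 ratio of covered length stayed positive, from 1.42 in lists of equal length to 3.09 without DMEM library 2; without a DMEM or CM library it ran from 1.62 to 3.09, and it was 2.69 without IER2. With replicate numbers as a block it was 2.29 (pairs 3.50 and 1.08, exact sign-flip p = 0.5, the smallest possible). Same-numbered libraries deviated together weakly (r = 0.046 over 12134 genes). With 2 libraries per condition and lists of unlike length, this value cannot show whether they share a culture or batch. The labels give them only the same number. The IER2 percentile moved to 81.0 with 500 bp, and that of IER5 to 19.6 with 2500 bp. In lists of equal length the IER2 percentile was 79.3, which follows from ranking the same peaks in shorter lists.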
